A study of Mus musculus with 3 samples.

Results

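The blood-retina barrier genes described here are 33 genes named in the deposited tables, out of 24071 genes listed there. They comprise 11 genes of tight, adherens and other endothelial junctions, 12 transporters, 4 surface and matrix genes of barrier endothelium, 3 genes of caveolae and fenestrae, and 3 transcription factors. They were followed in endothelial barcodes, taken as barcodes with at least 1 read in at least 6 of the 8 genes Pecam1, Cdh5, Flt1, Egfl7, Cldn5, Ly6c1, Kdr and Tie1, and in Müller glia and the other retinal classes. Of the 33 members, 3 (Cldn5, Cdh5 and Pecam1) are also genes of that rule, so their presence in endothelial barcodes is partly fixed by it.

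Retinas of mice at postnatal day 26 were dissociated and profiled with a droplet 3′ single-cell kit in 3 groups of 1 library each. The groups were WT, Tspan12 KO, and KO animals treated with F4L5.13. The strain field of the labels names the allele Tspan12tm1.2Hjug for all 3 libraries, WT included. F4L5.13 is an antibody that brings the receptors FZD4 and LRP5 together; the intraperitoneal doses were 10 mg/kg on postnatal days 6, 9 and 12, followed by 4 mg/kg at intervals of 3 days. The suspensions had been depleted of photoreceptors and dying cells with beads, so class sizes describe the depleted suspension. The sources used here do not say how many animals went into a library. With 1 library per group there is no replicate and no test, and every interval below is a 95% interval that covers counting error only.

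The inner blood-retina barrier is formed by capillary endothelial cells that seal their contacts with claudin-5 and other tight-junction proteins, carry nutrients and efflux substrates on selective transporters, and form few caveolae and no fenestrae. In retina the state depends on Norrin signalling through FZD4, LRP5 and TSPAN12 to β-catenin, with SOX17 among the factors downstream. Endothelium that lacks this signal is known to lose claudin-5 and to gain PLVAP, the protein of the diaphragms of fenestrae and caveolae.

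The deposited libraries held 6092 barcodes in WT, 10769 in KO and 9835 in the treated library, with medians of 14797, 7351 and 6588 reads per barcode. After filtering, 6081, 10239 and 8917 barcodes were kept. A total of 17 barcode sequences were shared between the WT and KO libraries, 15 between WT and treated, and 31 between KO and treated. Tspan12 itself was read in every library, at 47.5 CPM (reads scaled to a class total of 1e+06) in WT Müller glia, 31.7 in KO and 28.8 in treated. The sources used here do not say which part of the gene the allele lacks. A 3′ tag can lie outside that part, so these reads do not check the labels.

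Endothelial barcodes numbered 130 in WT, 2 in KO and 41 in the treated library. They made up 2.14% (1.79 to 2.53, exact binomial interval) of the filtered WT barcodes, 0.0195% (0.00237 to 0.0705) of the KO barcodes and 0.460% (0.330 to 0.623) of the treated barcodes. Fewer endothelial cells in the tissue and fewer recovered by the dissociation cannot be told apart. Barcodes just outside the rule, with reads in 5 of the 8 genes and counted before filtering, numbered 1 in WT, 0 in KO and 4 in treated. The endothelial barcodes were deeper than most, with medians of 62530 reads in WT and 49971 in treated.

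Reads of mural cells, the pericytes and smooth muscle cells that wrap capillaries, were part of most endothelial barcodes. At least 3 of 10 mural markers had a read in 106 of the 130 WT barcodes, 1 of the 2 KO barcodes and 33 of the 41 treated barcodes. The 10 mural markers summed to 6966 CPM in WT endothelial barcodes and 8423 CPM in treated ones, against 36922 CPM in the 5 WT barcodes of the mural class. Over single barcodes the mural sum ran from 0 to 19913 CPM in WT and from 0 to 17074 CPM in treated. Haemoglobin reads passed 1% in 22 WT, 0 KO and 7 treated barcodes. Endothelial levels below are therefore those of endothelial barcodes with attached mural RNA, whose part in the results was not tested beyond leaving those barcodes out.

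Most members were higher in endothelial barcodes than in glia and neurons. In WT, 27 of the 33 were at least 2-fold higher in endothelial barcodes than in the highest of 5 other classes (Müller, bipolar, amacrine, cone and rod), against 11.2% of all genes tested. A level at least 10-fold above those classes was reached by 21 members, against 4.27% of genes. At least 100-fold was reached by 12 members, a bound at which the share of all genes was not computed. These counts include Cldn5, Cdh5 and Pecam1, whose reads helped to choose the barcodes; of the other 30 members, 24 were at least 2-fold, 18 at least 10-fold and 9 at least 100-fold above. Mural cells, whose RNA is mixed into most of these barcodes, are not among the 5 classes. Itih5, a hyaluronan-binding matrix gene, was at 83.5 CPM in WT endothelial barcodes and at 563 CPM (32 reads) in the 5 WT mural barcodes. In the 11 KO and 6 treated mural barcodes it was at 11.8 and 40.4 CPM, against 106 CPM in treated endothelial barcodes. Cav1 was at 176 CPM in the WT mural barcodes, 212 in the KO ones and 80.8 in the treated ones. The 2 members at least 2-fold below the highest other class (49.5% of genes) were Cgn and Plvap. The share of all genes is a background for a list whose members were picked for their role in endothelium. In the treated library, 25 of the 32 members that could be tested were at least 2-fold above the other classes (11% of genes) and 20 at least 10-fold (3.93%), or 22 and 17 of 29 without the 3 rule genes. The 3 at least 2-fold below (50.6%) were Cgn, Plvap and Slc6a6.

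**Figure D1:**
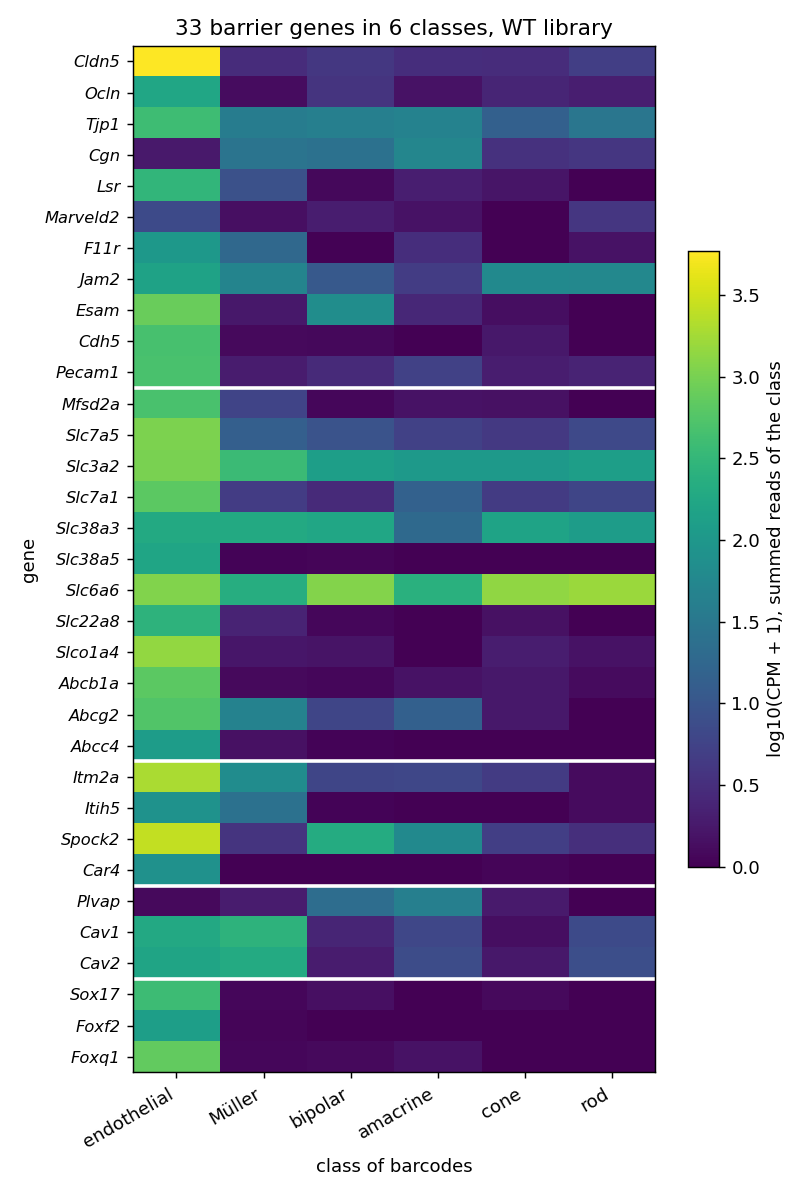
Levels of the 33 barrier genes in 6 classes of the WT library, as log10(CPM + 1) of the summed reads of each class; white lines separate junction, transporter, surface and matrix, fenestral and caveolar, and transcription factor genes. Most rows are bright only in the endothelial column, while Cgn and Plvap are dark there, and Cav1 and Cav2 are as bright in Müller glia.

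Among the junction genes, Cldn5, the main claudin of the barrier, was at 5845 CPM in WT endothelial barcodes and at most 4.07 CPM in the other 5 classes. Cdh5, the endothelial cadherin, was at 471 CPM and at most 0.740 elsewhere. Ocln, which encodes occludin, was at 169 CPM against 2.63 in bipolar cells, and Lsr, a receptor of tricellular junctions, at 303 against 7.55 in Müller glia. The scaffold Tjp1 and the adhesion molecules F11r and Jam2 were less confined. Tjp1 was at 389 CPM in endothelium and 46.5 in amacrine cells, and Jam2 was at 147 CPM in endothelium and 60.6 in cones. F11r reached 321 CPM in the 14 WT microglial barcodes, above its 102 CPM in endothelium. Esam was at 801 CPM in endothelium, 69.2 in bipolar cells and 369 in the 5 mural barcodes. Cgn, the cingulin of epithelial tight junctions, had 7 reads (0.836 CPM) in all WT endothelial barcodes and 51.9 CPM in amacrine cells.

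The transporters formed 2 patterns. Slco1a4, an organic anion transporter, was at 1420 CPM in WT endothelium and 0.987 in the next class, and the drug efflux pump gene Abcb1a was at 665 CPM against 0.740. Mfsd2a, a lipid transporter that restrains transcytosis, was at 489 CPM against 5.00 in Müller glia, and Slc7a5, the light chain of the large neutral amino acid transporter, at 1067 against 12.8. Its heavy chain Slc3a2 was broader, at 1007 CPM in endothelium and 363 in Müller glia. Slc38a3, a glutamine transporter, was at 191 CPM in endothelium and 194 in Müller glia. Slc6a6, the taurine transporter, was at 1121 CPM in endothelium, 1581 in rods and 1407 in cones.

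All 3 transcription factors were among the members over 100-fold above the other classes. Sox17 was at 380 CPM in WT endothelium, Foxf2 at 130 and Foxq1 at 739, and none of the 3 exceeded 0.535 CPM in the 5 other classes. Foxf2, which pericytes also express, had 3 reads in the 5 WT mural barcodes. The matrix proteoglycan Spock2 (2613 CPM in endothelium) was also read in bipolar cells at 208 CPM and in the 27 KO ganglion barcodes at 562 CPM. In WT the caveolar genes Cav1 and Cav2 were higher in Müller glia than in endothelium, at 272 against 189 CPM and 201 against 160 CPM. In the treated library Cav1 was at 213 CPM in Müller glia and 218 in endothelium, and Cav2 at 172 and 126.

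RefSeq (GRCm38.p6) start sites were matched for 23 of the 33 members. The 250 bases before the start are shown for Cldn5 and Slco1a4, whose levels tracked each other most closely among endothelial barcodes. Also shown are those of Car4, lower in treated endothelium, and of Cav1, in WT higher in Müller glia than in endothelium. Capitals mark CCGGAAG or its reverse complement CTTCCGG (an ETS motif), ACGTG or CACGT (the core of a hypoxia response element), ATCAAAG or CTTTGAT (TCF/LEF) and ACAATGG or CCATTGT (SOX).
Cldn5 promoter (chr16:18776597-18776846, plus strand): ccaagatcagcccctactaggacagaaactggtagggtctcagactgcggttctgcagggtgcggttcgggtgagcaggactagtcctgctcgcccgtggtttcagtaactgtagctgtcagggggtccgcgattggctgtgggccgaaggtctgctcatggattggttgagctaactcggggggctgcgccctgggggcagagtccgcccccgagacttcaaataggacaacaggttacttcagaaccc
Slco1a4 promoter (chr6:141856221-141856470, minus strand): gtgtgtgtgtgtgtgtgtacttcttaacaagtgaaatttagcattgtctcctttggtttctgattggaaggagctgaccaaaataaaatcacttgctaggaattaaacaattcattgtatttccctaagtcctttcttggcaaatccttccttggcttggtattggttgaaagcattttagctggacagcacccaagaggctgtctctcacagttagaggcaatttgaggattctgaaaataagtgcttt
Car4 promoter (chr11:84957504-84957753, plus strand): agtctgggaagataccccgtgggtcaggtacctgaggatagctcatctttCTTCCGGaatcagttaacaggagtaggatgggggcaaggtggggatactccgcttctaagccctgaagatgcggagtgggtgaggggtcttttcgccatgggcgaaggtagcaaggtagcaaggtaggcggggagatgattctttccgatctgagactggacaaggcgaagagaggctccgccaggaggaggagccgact
Cav1 promoter (chr6:17306085-17306334, plus strand): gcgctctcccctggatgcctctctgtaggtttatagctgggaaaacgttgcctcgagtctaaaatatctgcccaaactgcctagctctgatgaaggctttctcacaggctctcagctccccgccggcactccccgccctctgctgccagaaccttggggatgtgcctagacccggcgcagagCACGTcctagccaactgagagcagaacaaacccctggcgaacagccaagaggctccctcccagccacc
The Cav1 window lies within the span of the antisense gene Gm15581 (17206823 to 17385604). All 4 windows lie outside the GENCODE spans of the genes they precede. Their base composition differed: the Slco1a4 window is 39.2% G and C with 0 CpG, and the Cldn5 window is 59.6% with 12 CpG, where the median gene has 52.4% and 6 CpG. Over the 23 matched members the median was 59.8% and 11 CpG. The TCF/LEF letters were found before 1 matched member (Slc7a1; 3.72% of all genes), the ETS letters before 3 (Car4, Lsr and Slc3a2; 7.83%), the hypoxia core before 7 (18.5%), and the SOX letters before 0 (3.46%). None of these motifs contains another, both strands were searched, and a match of letters is a description and not a binding site.

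The treated and WT endothelial barcodes were compared to ask whether F4L5.13 in the KO left the barrier genes at WT levels. Of the 33 members, 30 had enough reads for a ratio (at least 10 expected molecules in the smaller library). Of these, 0 were 2-fold or more higher in the treated library, against 1.79% of all 8325 genes tested, and 2 were 2-fold or more lower, against 2.16%. The median ratio of the 30 was -0.11 on the log2 scale, and that of all genes tested was -0.04. Without the genes of the selection rule the median was -0.21 over 27 members, of which 9 were higher and 18 lower. Of all genes tested, 3735 were higher and 4590 lower. Apart from the 2 past 2-fold, the other 28 of the 30 members lay between ratios of 0.512 and 1.31.

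Of 9 junction genes, 0 were past 2-fold higher (1.79% of all genes) or lower (2.16%). Cldn5 was at 5845 CPM in WT and 5317 in treated barcodes, a ratio of 0.910 (0.878 to 0.943). Single barcodes ran from 456 to 14424 CPM in WT, with a median of 5803, and from 153 to 9872 CPM in treated, with a median of 4984, so the groups overlapped over most of their range. Cdh5 (1.12), Pecam1 (1.22), Tjp1 (0.949), F11r (1.15) and Esam (0.862) also had ratios near 1. Ocln was the lowest junction gene, at 169 CPM in WT and 86.6 in treated, a ratio of 0.512 (0.386 to 0.670). Jam2 had a ratio of 0.622 (0.471 to 0.810).

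**Figure D2:**
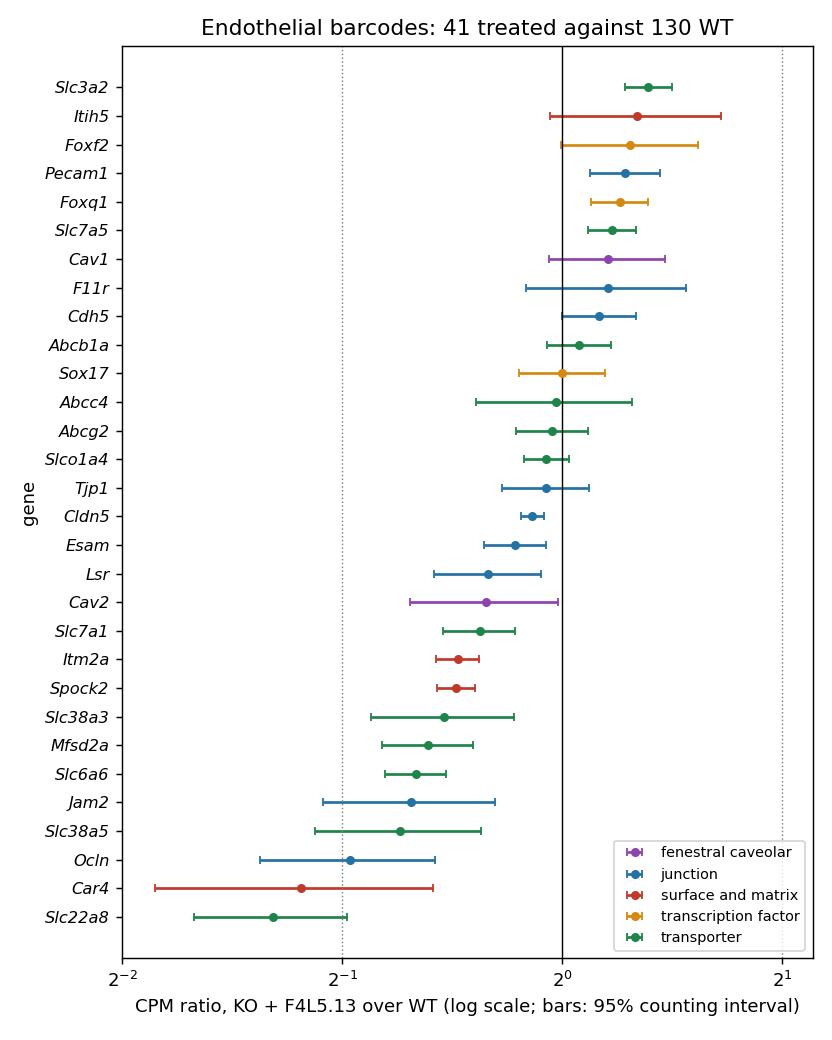
CPM ratio of treated over WT endothelial barcodes (log scale, 41 against 130 barcodes) for the 30 members with enough reads, with 95% counting intervals and colours by role; dotted lines mark 2-fold. Slc22a8 and Car4 lie below the lower line, and 0 members lie above the upper one.

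Of the 12 transporters, 0 were past 2-fold higher (1.79% of all genes) and 1 lower (2.16%). Slc22a8, an organic anion transporter, was at 270 CPM in WT and 108 in treated barcodes, a ratio of 0.401 (0.313 to 0.508). Without barcodes that held 3 or more mural markers (24 WT and 8 treated barcodes) neither Slc22a8 nor Car4 had enough reads to be called, and 0 members were past 2-fold lower. The Slc22a8 median over single barcodes was 246 CPM in WT and 79.0 in treated, and the highest barcode reached 1083 CPM in WT and 386 in treated. Slc38a5 (0.600), Slc6a6 (0.630), Mfsd2a (0.656), Slc38a3 (0.689) and Slc7a1 (0.770) had ratios below 1 with intervals that also lay below 1. The efflux genes Abcb1a (1.05), Abcg2 (0.968) and Abcc4 (0.979) and the carrier Slco1a4 (0.951) had intervals that held 1. Slc7a5 and Slc3a2, which form 1 amino acid exchanger, had ratios of 1.17 (1.09 to 1.26) and 1.31 (1.22 to 1.41).

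Car4, a carbonic anhydrase on the surface of capillary endothelium, was at 80.0 CPM in WT and 35.1 in treated barcodes, a ratio of 0.438 (0.277 to 0.665). Only 71 of 130 WT and 14 of 41 treated barcodes held a Car4 read. Itm2a, a transmembrane gene of brain and retinal endothelium, had a ratio of 0.720 (0.672 to 0.770), and Spock2 had 0.715 (0.674 to 0.758). Each WT barcode held reads of both, and in the treated library 40 of 41 barcodes held Itm2a and 41 held Spock2. The transcription factors were level or slightly higher: Sox17 had a ratio of 1.00 (0.872 to 1.14), Foxf2 1.24 (0.995 to 1.53) and Foxq1 1.20 (1.10 to 1.31). Cav1 had a ratio of 1.15 (0.958 to 1.38). Plvap had 2 reads in 1 WT barcode and 8 reads in 3 treated barcodes, too few for a ratio.

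Lists of vessel-type markers also differed between the 2 sets of barcodes. Markers of capillary endothelium, 6 genes that include the members Mfsd2a, Spock2 and Car4, summed to 4838 CPM in WT and 2905 in treated barcodes. The list also holds Tfrc and Slc16a1, given below among further barrier genes, so its sum is not separate from those values. The remaining gene, Rgcc, was at 349 and 308 CPM. Arterial markers summed to 1620 and 2733 CPM, venous markers to 879 and 858, and angiogenic tip-cell markers to 113 and 191. Most of the arterial sum was the gene Mgp, at 1280 CPM in WT and 2295 in treated barcodes. Of the other arterial markers, Gja4, Bmx and Efnb2 were higher in treated barcodes, and Hey1, Sema3g, Gkn3 and Gja5 were lower. The part of vessel type in the member ratios was not tested. Among 48 further barrier genes, 41 had enough reads, of which 0 were 2-fold or more higher (1.79% of all genes) and 4 lower (2.16%). Among the lower were Tfrc, the transferrin receptor (200 to 41.7 CPM), the organic anion carrier Slco1c1 (558 to 140 CPM) and the lactate carrier Slc16a1 (1107 to 330 CPM). The glucose transporter Slc2a1 was at 1619 CPM in WT and 1858 in treated barcodes.

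The 2 KO endothelial barcodes were described one by one against the 130 WT barcodes, since sums over 2 barcodes carry little. KO barcode 1 held 37325 reads, with reads in all 8 rule genes and in 10 of 10 mural markers. It had reads in 19 of the 33 members, and 14 had none. Among the 30 WT barcodes of 25000 to 50000 reads, between 3 and 9 members had no read (median 6). KO barcode 2 held 6352 reads, 7 rule genes and 0 mural markers, and 21 members had no read. The 6 WT barcodes under 10000 reads, which held 6942 to 8940 reads, had 8 to 12 members without a read (median 10.5), and the 5 treated barcodes under 10000 reads, the smallest of which held 2121 reads, had 12 to 20.

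Of the 12 transporters, 5 had reads in KO barcode 1 and 3 in barcode 2, and of the 4 surface and matrix genes 2 and 0. A count of 0 allows up to 3 molecule equivalents, or 8.61 reads in the KO library. Among members without a read, 8 were expected above that floor in barcode 1 at the WT mean and 3 in barcode 2. Spock2 had 0 reads in both, where the WT mean would give 97.5 reads in barcode 1 and 16.6 in barcode 2, and the lowest of the 130 WT barcodes was at 453 CPM. Itm2a had 1 and 0 reads, where the WT mean would give 73.1 and 12.4, and the lowest WT barcode was at 182 CPM. Slco1a4 had 0 and 0 reads, against 53.0 and 9.02 at the WT mean, and only 1 WT barcode had none. Slc7a5 had 0 and 0 reads, against 39.8 and 6.78, with 1 WT barcode without a read, and the second of these expected values lies under the floor. Foxq1 (27.6 and 4.69 at the WT mean), Slc7a1 (24.7 and 4.20), Mfsd2a (18.3 and 3.11) and Lsr (11.3 and 1.93) also had no read in either barcode. In barcode 2 a level of Slc7a5 or of these 4 genes below WT was not detectable at this depth.

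**Figure D3:**
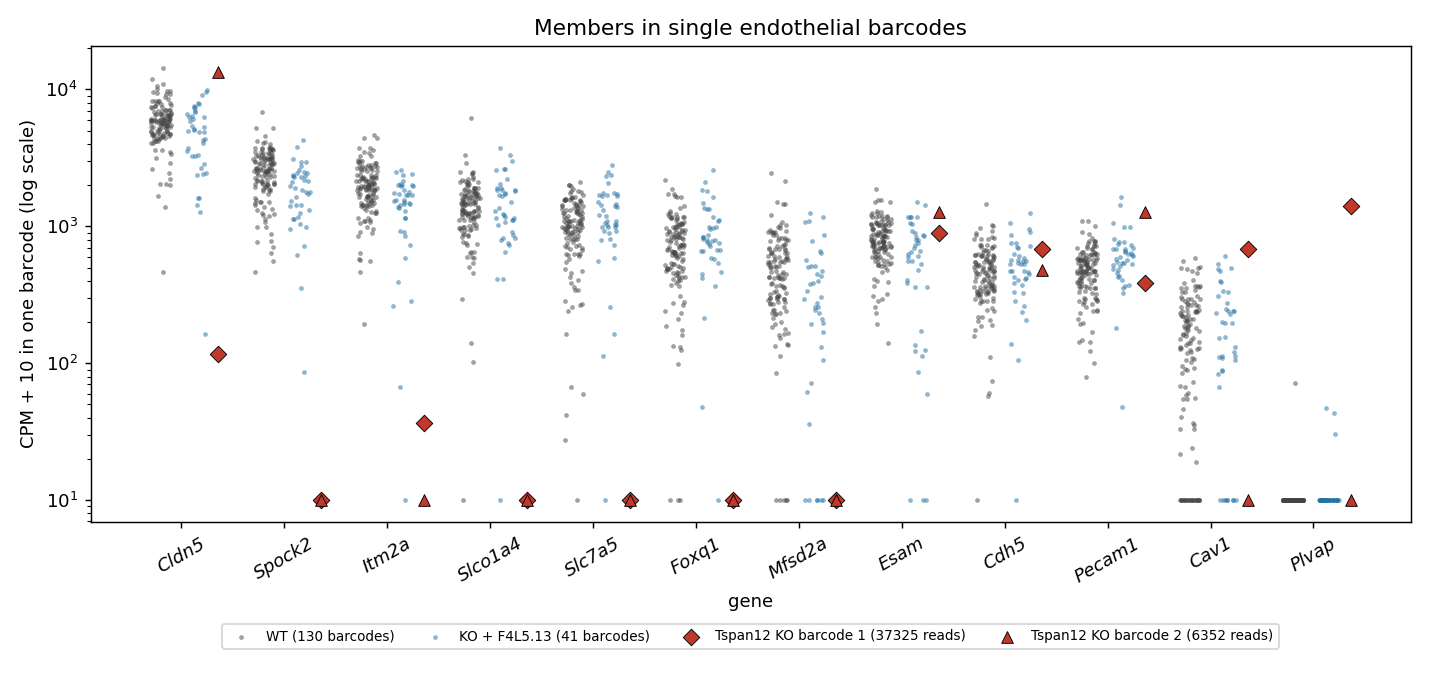
Levels of 12 members in each endothelial barcode, as CPM + 10 on a log axis; dots are the 130 WT and 41 treated barcodes, and the diamond and triangle are the 2 KO barcodes. For Spock2, Slco1a4, Slc7a5, Foxq1 and Mfsd2a both KO symbols lie on the line of barcodes without a read, while for Esam and for the rule genes Cdh5 and Pecam1 they lie among or above the other barcodes.

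Cdh5 and Pecam1 are genes of the selection rule, so their presence is not a result. Cdh5 had 25 reads (670 CPM) in barcode 1 and 3 reads (472 CPM) in barcode 2, where the WT median was 449 CPM. Pecam1 had 14 and 8 reads. Esam, a junction adhesion gene outside the rule, had 33 and 8 reads, where the WT mean would give 29.9 and 5.09. Of the 33 members, 12 were read in both barcodes, 7 in barcode 1 alone and 14 in neither, at very different depths. Cldn5 had 4 reads (107 CPM) in barcode 1, below each of the 130 WT and 41 treated barcodes, and 85 reads (13382 CPM) in barcode 2, above all but 1 WT barcode. Plvap had 52 reads (1393 CPM) in barcode 1, where the highest WT barcode was at 62.1 CPM, and 0 reads in barcode 2. Cav1 had 25 reads (670 CPM) in barcode 1, above each WT and treated barcode, and 0 reads in barcode 2.

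Other genes differed between the same barcodes. Esm1, a gene of angiogenic tip cells, had 20 reads in barcode 1 and 0 in barcode 2, and the highest WT barcode was at 239 CPM against 536 in barcode 1. Vwf, which is highest in large vessels, had 1 read in barcode 1 and 7 in barcode 2. Arterial markers summed to 2894 CPM in 1 KO barcode and 19994 CPM in the other. The highest WT barcode was at 7577 CPM and the highest treated one at 8183. Over both KO barcodes Mgp made up 3755 CPM of an arterial sum of 5380. The part of vessel type in the members without a read was not tested. Slc2a1 had 0 reads in both, against 60.4 and 10.3 at the WT mean, and every WT barcode held Slc2a1 at 65.0 CPM or more. Each barcode is 1 cell or 1 cell with attached material, so no level of the KO endothelium follows from them.

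Among the treated barcodes, 1 stood apart, with reads in 6 rule genes and none in 24 of the 33 members at 26147 reads. It fell in a bipolar cluster, while 37 of the 41 treated barcodes fell in the endothelial cluster and 3 others were ranked as doublets.

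Within WT endothelium, members varied together to a small extent. Over the 124 WT barcodes of at least 10000 reads, the median Pearson r of log2(CPM + 1) over 435 pairs of members was 0.23, from -0.25 to 0.68. The closest pairs were Cldn5 with Slco1a4 (0.68 in WT, 0.82 in the 36 treated barcodes), Cldn5 with Slc3a2 (0.68 and 0.76) and Slc7a5 with Slc22a8 (0.67 and 0.38). The most opposed pair was Slc7a5 with Slc6a6 at -0.25. The barcodes share 1 library each and differ in depth and in mural RNA, so these values are descriptions of these libraries.

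Outside endothelium, the members most confined to it had low levels that differed between libraries. Cldn5 was at 1.97 to 4.07 CPM over the 5 other WT classes, at 0 to 0.0312 in the KO classes and at 0 to 2.56 in the treated classes. In bipolar cells it had 118 reads (3.07 CPM) in WT, 0 in KO and 42 (1.14 CPM) in treated, where a count of 0 allows up to 0.345 CPM. The 12 members at least 100-fold above the other classes summed to 6.98 CPM in WT bipolar cells, 2.61 in KO and 3.39 in treated, against 10770 CPM in WT endothelial barcodes. The same sum was 6.44, 3.18 and 2.95 CPM in Müller glia, 7.49, 4.20 and 2.58 in amacrine cells, 6.29, 0.888 and 6.89 in cones and 6.23, 4.84 and 6.17 in rods. The counting intervals in WT, KO and treated rods were 2.68 to 12.3, 3.13 to 7.14 and 4.08 to 8.94 CPM. In cones they were 3.71 to 10.0, 0.0545 to 3.97 and 3.71 to 11.7 CPM. Pecam1, 1 of the 12, was at 1.36 CPM in WT rods and 4.57 in KO rods, most of the KO rod sum. The source of these reads was not tested.

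Müller glia, whose endfeet contact the vessels, were compared across all 3 libraries (1611, 1200 and 1119 barcodes). The clusters behind the class differed: most WT barcodes lay in 1 cluster (1264 of 1611) and most KO barcodes in another (728 of 1200). One more cluster was evenly shared (326, 376 and 326 barcodes) and also carried 5 rod markers. Müller glia also read the endothelial rule genes Flt1 and Kdr, at 395 and 480 CPM in WT.

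Between KO and WT Müller glia, 21 members had enough reads, of which 1 was 2-fold or more higher (3.83% of all genes) and 1 lower (4.18%). The higher was Plvap, from 0.936 to 3.0 CPM, a ratio of 3.20 (1.58 to 7.0), and the lower was Cldn5, from 2.02 to 0.0312 CPM. Plvap was also at 0 CPM in WT rods and 3.63 in KO rods, in libraries with 1076 and 2962 Plvap reads in all, and the source of these reads was not tested. Within the evenly shared cluster, or at a minimum of 30 expected molecules, 0 members with enough reads were past 2-fold in either direction. Plvap had too few reads to be called in either setting. In the shared cluster it had 6 WT and 26 KO reads, at 0.619 and 2.09 CPM. Its log2 ratio ran from 1.68 to 2.09 over all 11 settings. Between treated and KO, 1 of 18 was higher (2.97%) and 0 lower (3.21%). Between treated and WT, 2 of 19 were higher (1.2%) and 1, again Cldn5, was lower (1.47%). These comparisons share libraries and are not independent of one another.

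Slc7a5 was at 12.8 CPM in WT, 11.5 in KO and 25.7 in treated Müller glia, a ratio of treated to KO of 2.23 (1.79 to 2.81). It was higher in treated than in WT within both larger shared clusters, at 23.0 against 11.7 CPM in the cluster of most WT barcodes and 26.1 against 15.4 in the evenly shared one. Slc7a1, a cationic amino acid carrier, was at 3.60, 4.81 and 7.67 CPM in WT, KO and treated. Slc6a6 was at 219, 219 and 340 CPM in the class. Within the cluster of most WT barcodes it was at 97.5 CPM in WT and 88.0 in treated, and within the cluster with rod markers at 527 and 714, so the class value moved with that cluster. Slc3a2 was at 363, 446 and 437 CPM.

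**Figure D4:**
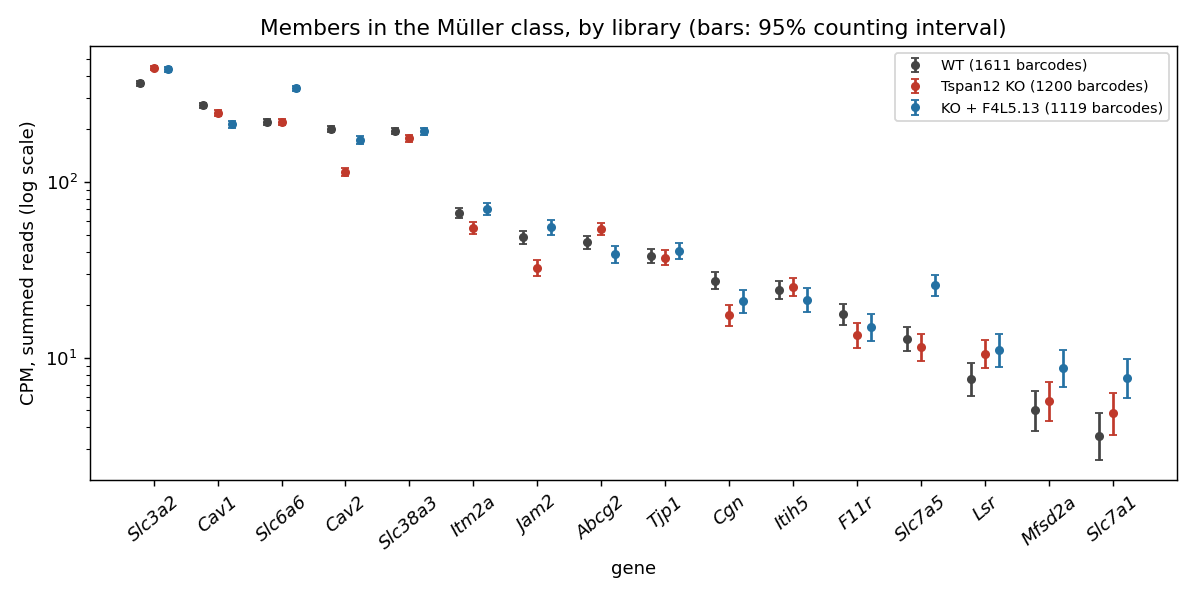
Levels of the 16 members that reach 5 CPM in the Müller class of at least 1 library, in CPM on a log axis with 95% counting intervals, for WT, Tspan12 KO and treated. Cav2 and Jam2 are lowest in KO, and Slc7a5 is highest in the treated library.

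Cav2 was at 201 CPM in WT, 114 in KO and 172 in treated Müller glia, with ratios of 0.566 (0.529 to 0.607) for KO to WT and 1.52 (1.40 to 1.64) for treated to KO. Within the evenly shared cluster it was at 126, 92.2 and 129 CPM. Jam2 was at 48.4, 32.3 and 55.1 CPM, and Cgn at 27.3, 17.4 and 20.9. Cav1, the partner of Cav2 in caveolae, was at 272, 246 and 213 CPM, lowest in the treated library. Slc38a3 stayed between 177 and 194 CPM. The efflux gene Abcg2 was at 45.3, 54.1 and 38.6 CPM.

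Of the 48 further barrier genes in Müller glia, 1 of 40 was higher (3.83% of all genes) and 4 lower (4.18%) in KO than in WT. Slco1c1 was at 25 CPM in WT, 0.780 in KO and 13.6 in treated, and the zinc carrier Slc39a8 at 4.65, 0.655 and 8.82. Lef1, a transcription factor of the β-catenin pathway, was at 6.90, 3.03 and 7.98 CPM. Bsg, the chaperone of lactate carriers, was 2-fold or more lower in treated than in KO, with a ratio of 0.474 (0.468 to 0.481). Its level in WT was 3998 CPM, in KO 6952 and in treated 3297.

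In neurons few members differed 2-fold. In bipolar cells, 0 of 16 members were higher (2.83% of genes) and 1 lower (1.62%, Cldn5) in KO than in WT, and 1 of 15 was higher in treated than in KO (1.71%), Ocln, from 1.80 to 3.80 CPM, with 0 lower (3.57%). Between treated and WT bipolar cells, 0 of 17 were higher (0.714%) and 1, Cldn5, was lower (1.2%). Slc6a6 was at 1176 CPM in WT, 900 in KO and 1386 in treated bipolar cells. It was also higher in treated than in KO in cones (1443 and 1916 CPM), rods (1242 and 1819 CPM) and horizontal cells (153 and 230 CPM). Spock2 was 2-fold or more higher in KO than in WT in amacrine cells (1 of 6 members, 1.56% of genes), at 61.0 and 123 CPM, with 0 lower (1.72%). The largest amacrine cluster held 391 of the 1172 KO barcodes and 13 of the 115 WT barcodes. Between treated and KO amacrine cells 0 of 6 members were higher (1.35%) or lower (1.72%), and between treated and WT 0 of 6 were higher (1.86%) or lower (2.26%). In cones Spock2 was again the 1 of 6 members past 2-fold higher in KO than in WT (2.01% of genes; 0 lower, 0.811%), and in treated than in WT (1.15%; 0 lower, 1.05%), on 33 WT, 45 KO and 72 treated reads. Between treated and KO cones 0 of 6 members were higher (1.62%) or lower (2.77%). In rods, 0 of 5 members were higher (19.5%) or lower (1.14%) in KO than in WT. Between treated and WT rods 0 of 5 were higher (17.6%) or lower (1.81%), and between treated and KO 0 of 12 were higher (0.955%) or lower (5.29%). The high shares against WT stand beside median depths of 13550 reads in WT rods and 2969 in KO rods. In horizontal cells Slc7a5 was at 35.9 CPM in KO and 86.6 in treated (1 of 7 members, 1.7% of genes; 0 lower, 1.83%), with 59.6 in WT.

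Plvap was read mainly in neurons. In amacrine cells it was at 40.7, 56.9 and 41.2 CPM in WT, KO and treated, and in bipolar cells at 21.3, 39.0 and 30.1 CPM. The highest bipolar level was in 1 cluster, which held 39.0%, 23.0% and 32.2% of the bipolar Plvap reads and was led by Htr3a, a serotonin receptor gene of some cone bipolar cells, and by Plvap itself. In that cluster, of 193, 86 and 138 barcodes, Plvap was at 164 CPM (135 to 198), 234 (185 to 291) and 212 (174 to 255). The median of the 13 bipolar clusters of at least 50 WT barcodes was 6.02 CPM. It was 19.1 CPM over the 9 of at least 50 KO barcodes and 9.59 over the 12 of at least 50 treated barcodes. The bipolar class ratio of KO to WT was 1.83 (1.56 to 2.15). In the Plvap-rich cluster KO was also above WT, with overlapping intervals of the levels, and no interval of its ratio was computed. The WT and KO intervals did not overlap in bipolar cluster 9 (18.7 and 42.7 CPM) or bipolar cluster 11 (30.3 and 53.6 CPM). KO was below WT in bipolar clusters 18 (10.9 and 1.57 CPM) and 20 (0.722 and 0 CPM), with overlapping intervals. Endothelial barcodes held 2 of the 1076 Plvap reads of the WT library, 52 of 2962 in KO and 8 of 1532 in treated.

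**Figure D5:**
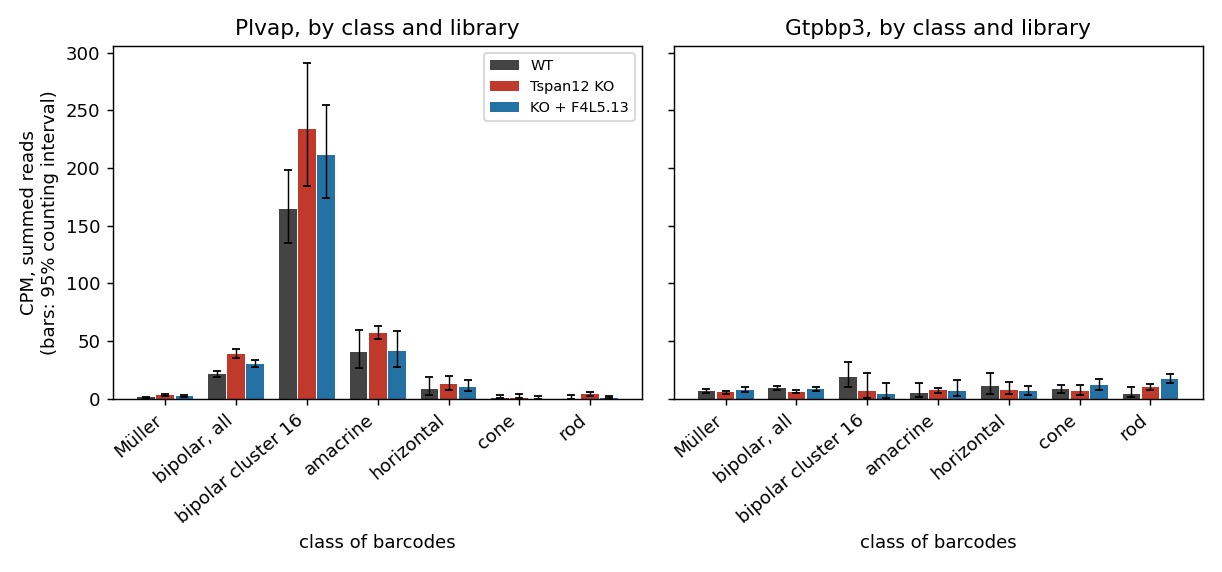
Plvap (left) and the overlapping gene Gtpbp3 (right) in CPM by class and library, with 95% counting intervals; the bars start at 0. The bipolar cluster 16 stands at 164 to 234 CPM of Plvap in the 3 libraries, and Gtpbp3 stays below 19 CPM there.

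Plvap lies on the minus strand at chr8:71497765-71511752 (GENCODE, GRCm38), and its end overlaps the end of Gtpbp3 on the plus strand, which spans 71488103 to 71499583. The sources used here do not say whether the counting used strand, so reads in the shared stretch cannot be told apart by these tables alone. Gtpbp3 was at 18.5, 6.25 and 3.55 CPM in the Plvap-rich bipolar cluster and at 4.34, 9.61 and 17.3 CPM in rods, where Plvap was at 0, 3.63 and 0.841. Levels of the 2 genes did not run in parallel across these classes. Totals per gene do not show which reads lie in the shared stretch, and its part in the Plvap counts was not tested.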

How the data were processed

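Droplet 3′ single-cell libraries of 3 groups of mouse retina, 1 library each, were used. The values deposited by the authors are estimated counts per gene and barcode; per the submitters' processing notes the build was mm10 and Partek 9.0 was used, and the sources used here do not say which step made the counts. Values were rounded to whole reads. They behave as reads not collapsed to molecules, since only 53.1%, 53.3% and 48.2% (WT, KO, treated) of the nonzero values of genes detected in 5 to 100 barcodes were 1, so reads were divided by 2.90, 2.87 and 3.20 to give molecule equivalents for intervals. The design had planned for molecules.

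Barcodes with fewer than 500 genes or over 20% mitochondrial reads were left out. Barcodes ranked highest by simulated doublets (4.87%, 8.62% and 7.87%) were left out of the classes but not of the endothelial barcodes. Clusters (Leiden, leidenalg 0.10.2, resolution 1, 2000 variable genes, 40 principal components) were named from at least 3 markers that were 2-fold or more above other clusters and in at least 20% of barcodes. Cluster names were rebuilt here and may differ from the study's. Endothelial barcodes were taken by the 8-gene rule alone. Reads were summed per class and library and scaled to CPM; ratios have exact conditional binomial intervals, CPM exact Poisson intervals and shares Clopper-Pearson intervals, all at 95%. A gene was compared when at least 10 molecule equivalents were expected in the smaller library, and a 2-fold ratio was the size used to call a difference. A count of 0 allows up to 3 molecule equivalents. No p-value was computed. The ratio and interval scripts were tested on simulated data.

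The members and all lists were chosen with earlier results of these data known. Of the members, the text names those past 2-fold, those next to them, and examples of each role. Promoters came from a RefSeq table (GRCm38.p6) and positions from GENCODE vM21. One further barrier gene is not reported here.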

Additional observations from a re-analysis of the deposited data

How the results depend on the processing

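No paired analysis was possible because each group has 1 library. The WT and treated counts of endothelial barcodes stayed within 1.5 times under every alternative but 1. Leaving out barcodes with 3 or more mural markers kept 24 of 130 WT and 8 of 41 treated barcodes. KO had 1 barcode when all 8 rule genes were required. Slc22a8 and Car4 stayed 2-fold or more lower in treated endothelium under each alternative run, with log2 ratios from -2.33 to -1.08 and -3.80 to -1.0. Without barcodes carrying 3 or more mural markers (24 WT and 8 treated barcodes, 20 members with enough reads) 0 members were lower, since neither gene then had enough reads, and 48 genes in all were higher and 40 lower, against 149 and 180; with no filter on low genes 1 member (Plvap) was higher, with 2081 and 5094 genes in all. Over all genes the counts were 261 and 318 by mean CPM per barcode and 55 and 44 at 30 expected molecule equivalents. In Müller glia, KO against WT, higher members numbered 2 by 6 of 8 Müller genes (5.69% of all genes), without clusters with photoreceptor markers (3.74%) and by mean CPM per barcode (4.26%). They numbered 0 at 30 expected molecule equivalents (2.67%) and 0 in the evenly shared cluster (3.05%, an alternative added after the data were seen). At 30 expected and in the shared cluster Plvap had too few reads to be called. Lower members numbered 0 without clusters with photoreceptor markers (4.43% of all genes), without barcodes with 3 or more endothelial genes (4.27%), at 30 expected (2.65%) and in the shared cluster (2.32%). With no filter on low genes, 8 of 32 members were lower, against 11.3% of all genes. For treated against KO, higher members numbered 2 by mean CPM (3.2% of all genes) and 4 of 29 with no filter (9.61%). Lower members numbered 1 by 6 of 8 Müller genes (4.1%), without photoreceptor-marker clusters (3.24%), with no filter (13.4%), and with an unnamed cluster of Müller and cone markers (3.09%, added later). For treated against WT, higher members numbered 1 without barcodes with endothelial genes (1.26% of all genes) and 0 in the shared cluster (1.44%). Lower members numbered 0 without photoreceptor-marker clusters (1.22%), without barcodes with endothelial genes (1.45%), at 30 expected (0.469%) and in the shared cluster (1.28%). With no filter, 11 of 32 members were lower, against 11.8% of all genes. Slc6a6 in Müller glia, treated against WT, was at -0.01 without clusters with photoreceptor markers and 0.64 with them on the log2 scale. The cause of the other changes was not tested. Depth limits KO endothelium most, where 2 barcodes hold 43677 reads.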
